A study of Mus musculus with 12 samples.

Results

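The genes described here are 55 that act in mitosis and in the G2 to M transition of the cell cycle, chosen as a fixed list of symbols for their textbook roles. Earlier results of these data were known when the list was chosen. All 55 matched exactly 1 of the 48672 gene IDs counted in each library, and all 55 passed the filter on low counts. They were followed in invariant natural killer T (iNKT) cells of the mouse thymus, T cells that carry a semi-invariant receptor for lipids and take on innate-like behaviour early in life. RNA was sequenced in 12 libraries, 3 in each of 4 groups: Bcl6KO stage 1, Bcl6KO stage 0, WT stage 1 and WT stage 0. Bcl6KO mice carried loxP-flanked alleles of Bcl6, a transcriptional repressor gene, together with a Cre transgene that the labels write as CDCre, with no statement of the promoter behind it. The WT mice are described no further. All mice were C57Bl/6J, 4 to 5 weeks old and untreated, and thymi of 4 to 7 mice were pooled for sorting. Sorted cells bound the tetramer and carried the beta chain of the T cell receptor. Stage 0 cells were CD24+ CD44- and stage 1 cells CD24- CD44-. Nothing in the labels tells whether the libraries of a group are independent pools, and the spread behind every p-value may be partly technical.

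Cells that commit to division make the mitotic proteins late in the cycle and destroy many of them as they leave mitosis. Cyclin B with Cdk1 drives entry, the chromosomal passenger and Ndc80 complexes attach chromosomes to the spindle, the spindle checkpoint holds the anaphase-promoting complex until attachment is complete, and kinesins and the cytokinesis machinery separate the daughter cells. The genes are transcribed together: in quiescent cells the DREAM complex (the pocket proteins with E2F and the MuvB core) represses them through a promoter element called the cell cycle genes homology region (CHR), and in cycling cells the MuvB core joins Mybl2 and Foxm1 to activate them. In the thymus, iNKT precursors are known to divide soon after selection, as they lose CD24.

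The promoters show what the genes share in sequence. RefSeq promoter windows of build GRCm38.p6, running from 250 bases before to 50 bases after a gene's start, were found for 45 members in 48 windows. Aurkb, Ccna2, Cdc25c, Foxm1, Incenp, Kif20a, Lmnb1, Smc4, Spc24 and Tpx2 had no entry. The core of the CHR, TTTGAA on either strand, was present in 37 of the 48 member windows (77.1%), against 17.9% of 32851 windows of all genes. Within 50 bases of the start it was present in 68.8% of member windows and in 4.94% of all windows. The CCAAT box, the letters CCAAT on either strand and the site of the factor NF-Y, was in 75% of member windows and in 37.4% of all windows. Both motifs stood in 66.7% of member windows and in 6.95% of all windows. Matches of the pair may share a base, and a match is a run of letters, not a measured binding site. The 250 bases before the start are given for Mki67, Top2a and Kif11, whose genotype differences had the lowest p-values, and for Cdk1 and Cdc20, the kinase that starts mitosis and the activator that ends it. They lie at chr7:135716380-135716629 (minus strand, Mki67), chr11:99024190-99024439 (minus strand, Top2a), chr19:37376132-37376381 (plus strand, Kif11), chr10:69352913-69353162 (minus strand, Cdk1) and chr4:118437344-118437593 (minus strand, Cdc20). Capitals mark every TTTGAA and CCAAT of either strand, so that a match on the other strand reads TTCAAA or ATTGG.
Mki67: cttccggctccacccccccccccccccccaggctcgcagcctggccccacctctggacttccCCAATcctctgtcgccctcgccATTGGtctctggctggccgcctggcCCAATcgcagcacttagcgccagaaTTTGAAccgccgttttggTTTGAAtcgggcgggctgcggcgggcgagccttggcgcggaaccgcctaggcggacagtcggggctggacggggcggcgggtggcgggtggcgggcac
Top2a: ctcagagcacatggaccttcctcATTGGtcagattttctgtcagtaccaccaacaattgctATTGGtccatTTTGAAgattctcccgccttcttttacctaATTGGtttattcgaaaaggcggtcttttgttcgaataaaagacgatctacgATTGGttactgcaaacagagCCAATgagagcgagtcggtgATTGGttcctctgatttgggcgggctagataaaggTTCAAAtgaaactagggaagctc
Kif11: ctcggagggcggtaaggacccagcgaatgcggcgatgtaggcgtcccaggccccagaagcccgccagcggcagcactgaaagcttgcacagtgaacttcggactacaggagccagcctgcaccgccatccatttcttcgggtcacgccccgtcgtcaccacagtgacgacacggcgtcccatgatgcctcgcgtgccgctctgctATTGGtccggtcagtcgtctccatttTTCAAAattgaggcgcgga
Cdk1: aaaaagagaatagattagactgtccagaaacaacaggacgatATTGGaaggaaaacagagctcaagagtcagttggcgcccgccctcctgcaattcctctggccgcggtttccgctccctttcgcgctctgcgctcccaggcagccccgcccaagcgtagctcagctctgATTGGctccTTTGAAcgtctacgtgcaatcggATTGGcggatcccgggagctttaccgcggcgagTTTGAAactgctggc
Cdc20: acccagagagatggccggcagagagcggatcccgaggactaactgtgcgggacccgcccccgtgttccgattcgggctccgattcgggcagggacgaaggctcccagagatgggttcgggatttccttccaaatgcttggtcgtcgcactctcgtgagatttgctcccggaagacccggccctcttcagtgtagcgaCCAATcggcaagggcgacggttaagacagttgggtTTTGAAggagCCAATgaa
The CHR core nearest the start lay 15 bases before it in Cdk1, 18 in Cdc20, 19 in Kif11, 23 in Top2a and 98 in Mki67. Top2a held 6 CCAAT boxes in these bases, Mki67 and Cdk1 held 3, Cdc20 held 2 and Kif11 held 1.

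**Figure D1:**
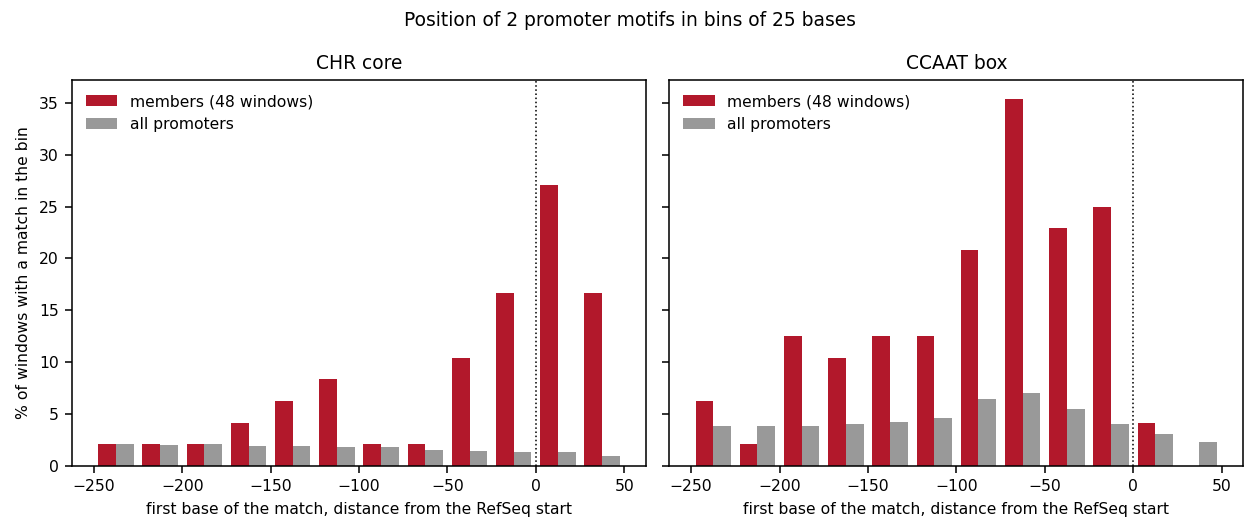
Share of promoter windows (y axis, percent) with a match in each bin of 25 bases along the window (x axis, distance of the match from the RefSeq start in bases), for the 48 member windows (red) and all 32851 windows (grey). In members the CHR core peaks just after the start, at 27.1% of windows in the bin from 0 to 24 bases against 1.31% of all windows, and the CCAAT box peaks from 75 to 51 bases before it, at 35.4% against 6.99%.

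Library totals ran from 4129919 to 8038717 counts. The libraries labelled Bcl6KO stage 0 stood apart from the rest: they had 14860 to 17734 genes with at least 1 count, against 19181 to 22028 in both stage 1 groups and 18417 to 21607 in WT stage 0. The nuclear body gene Sp100 took 10.8% to 23.9% of their counts, against 0.0289% to 5.03% in WT stage 0, 0.0283% to 3.77% in Bcl6KO stage 1 and 0.0303% to 0.937% in WT stage 1. Levels are therefore given as CPM, the count divided by a library size that TMM scaling (the trimmed mean method of edgeR) has corrected, expressed per 1000000, and whether the Sp100 share plays a part in any difference of the members was not tested beyond a fit that held it as a covariate. Bcl6 itself was counted at 511, 657 and 652 CPM in Bcl6KO libraries, against 373, 217 and 275 CPM in WT libraries at stage 0, and at 14.7, 56.05 and 25.2 CPM in Bcl6KO libraries, against 8.77, 4.15 and 8.61 CPM in WT libraries at stage 1. Bcl6 was counted over all of its exons and the labels do not name the floxed ones, so these levels check neither the deletion nor the labels. All 10 iNKT markers were detected in every group, with a summed level between 5085 and 7437 CPM in the 12 libraries. The sum hides differences of single markers. Zbtb16 was at 94.6, 8.72 and 48.2 CPM in Bcl6KO libraries, against 193, 210 and 96.8 CPM in WT libraries at stage 0, narrowly without overlap. At stage 1 it was at 322, 305 and 440 CPM in Bcl6KO libraries, against 409, 581 and 641 CPM in WT libraries, with overlap. Cd24a, the gene of the antigen that separates the stages, was at 1.33 ± 0.498 CPM and 242 ± 81.1 CPM in Bcl6KO stages 1 and 0, and at 5.84 ± 6.93 CPM and 167 ± 15.7 CPM in WT stages 1 and 0 (SD, n = 3 each).

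Summed over the 55 genes, mitotic transcripts made up the largest part of the RNA in Bcl6KO stage 1 and the smallest in WT stage 0. Their share of the library was 0.646%, 0.835% and 0.797% in Bcl6KO stage 1, against 0.505%, 0.253% and 0.484% in WT stage 1. At stage 0 it was 0.494%, 0.482% and 0.543% in Bcl6KO, against 0.271%, 0.288% and 0.278% in WT. Bcl6KO and WT libraries did not overlap at either stage. On the scaled size the sums were 7121 ± 1620 CPM in Bcl6KO stage 1, 6703 ± 1057 CPM in its stage 0 cells, 3689 ± 1298 CPM in WT stage 1 and 2645 ± 225 CPM in WT stage 0 (SD, n = 3 each). Mki67 alone gave 31.0 ± 6.69%, 27.5 ± 2.98%, 25.2 ± 4.49% and 14.2 ± 1.76% of these sums in the same order of groups. Without Mki67 the sums were 4847 ± 725, 4858 ± 774, 2719 ± 837 and 2270 ± 200 CPM. In bulk RNA such as this, more dividing cells in a pool and more mitotic RNA per dividing cell cannot be told apart.

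**Figure D2:**
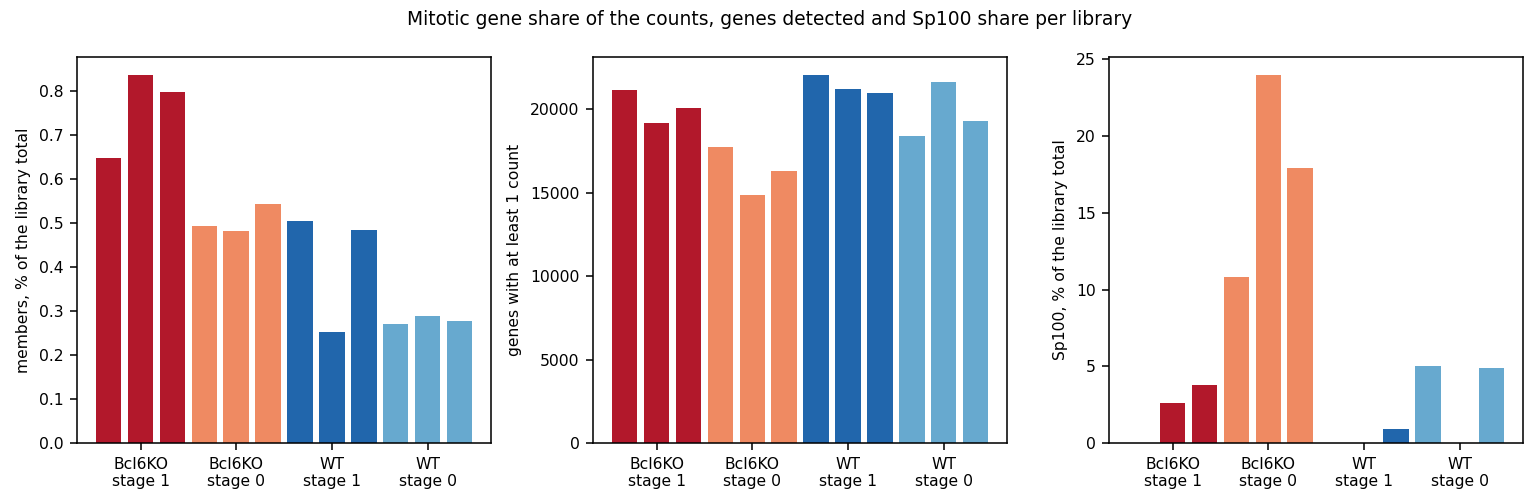
Each bar is 1 library, in 4 groups of 3 from left to right: Bcl6KO stage 1, Bcl6KO stage 0, WT stage 1, WT stage 0. The panels give the 55 genes' share of the library total (percent), the number of genes with at least 1 count, and the Sp100 share (percent). The mitotic share lies at 0.482% or above in the 6 Bcl6KO libraries and at 0.288% or below in WT stage 0 and WT stage 1 library 2, and Bcl6KO stage 0 has the fewest genes and the highest Sp100 shares.

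WT stage 1 library 2 had the lowest level of its group for 47 of the 55 members (85.5%), where 35.6% of all genes tested were lowest in that library. No other library was lowest in its group for more than 26 members. Between libraries, Bcl6KO stage 0 scattered most: 16 of 55 members differed over 10-fold between its libraries, against 0 in Bcl6KO stage 1, 1 in WT stage 1 and 13 in WT stage 0. The median SD of log2(CPM + 1) over members was 0.46 in Bcl6KO stage 1, 1.08 in Bcl6KO stage 0, 0.69 in WT stage 1 and 0.84 in WT stage 0, and over all genes tested it was 0.64, 1.02, 0.46 and 0.74 in the same order.

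**Figure D3:**
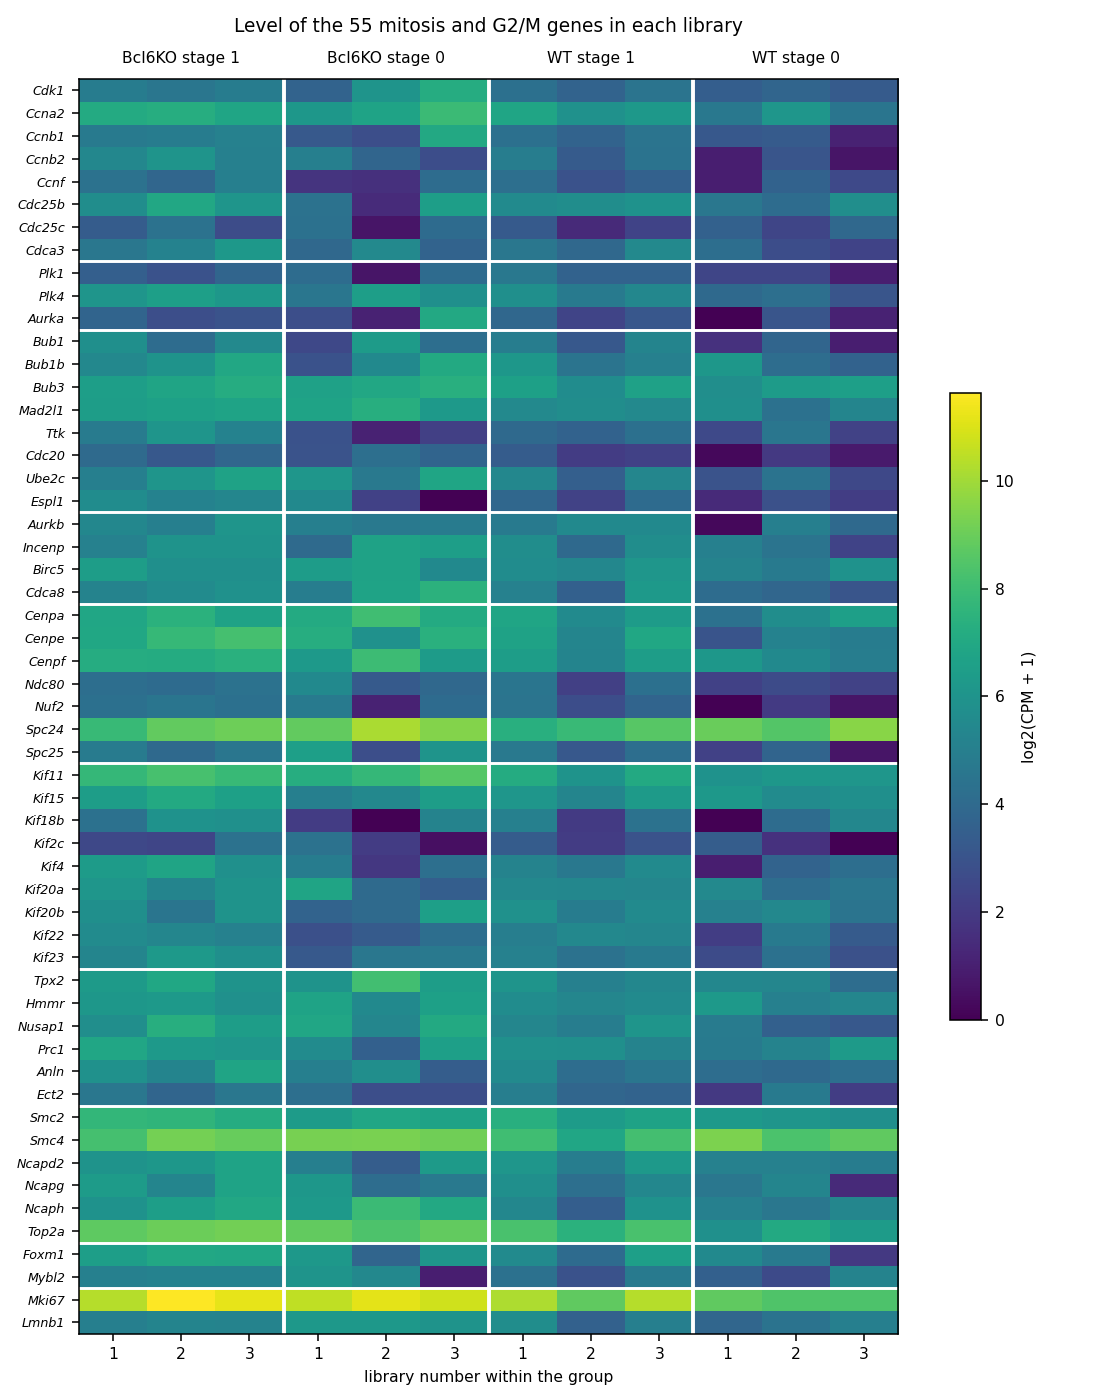
Level of each of the 55 genes (rows, grouped by role with white lines) in each of the 12 libraries (columns), as log2(CPM + 1) on the colour scale. Mki67, Spc24, Smc4 and Top2a are the brightest rows, WT stage 1 library 2 is darker than its neighbours in most rows, and the columns of Bcl6KO stage 0 and WT stage 0 are the most uneven.

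The comparison of Bcl6KO with WT sets the libraries labelled Bcl6KO against those labelled WT at each stage. Most mitotic genes had higher fitted levels in Bcl6KO, and no member passed the test at either stage. At stage 0, 50 of 55 members had a positive log2 fold change, with a median of 1.36 against -0.01 over all genes tested, and 25 had an unadjusted p under 0.05, all of them higher in Bcl6KO, where 931 of all genes tested were higher and 1378 lower at that p. The count was 12 with the Sp100 share as a covariate, and 18 with unscaled totals or with the 6 stage 0 libraries fitted alone. None passed edgeR's quasi-likelihood test with Benjamini-Hochberg adjustment over the 15704 genes tested (0 of 55, with 0.0191% of all genes called, and a lowest adjusted p of 0.0939). DESeq2 called 19 members at stage 0, all higher in Bcl6KO. Over all genes it called 950 (6.05%), with 357 higher and 593 lower in Bcl6KO. Limma-voom called 0 members, with 0.00637% of all genes called. In 19 members (34.5%) all 3 Bcl6KO libraries lay above all 3 WT libraries, against 4.67% of all genes, and in 0 they lay below.

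At stage 1 the median over members was 0.78, against 0.02 over all genes, and 53 of 55 were positive. Here 6 members had an unadjusted p under 0.05, all higher in Bcl6KO, with 227 higher and 177 lower over all genes. None passed the edgeR test (0 of 55, with 0% of all genes called, lowest adjusted p = 1), and DESeq2 and limma-voom called 0 as well. The libraries did not overlap in 19 members (34.5%), all higher in Bcl6KO, against 5.87% of all genes. Without WT stage 1 library 2 the stage 1 median was 0.56, 48 members were positive and 1 had an unadjusted p under 0.05. That count was 2 without Bcl6KO stage 1 library 2, 3 without its library 3, and 20 with the 6 stage 1 libraries fitted alone. Averaged over both stages, 53 members were positive with a median of 1.04, and 26 had an unadjusted p under 0.05, or 15 with the Sp100 covariate. None passed the edgeR test (0 of 55, with 0.00637% of all genes called, lowest adjusted p = 0.0693). DESeq2 called 15 members, with 2.87% of all genes called, and limma-voom called Top2a, with 0.0255% of all genes called. All 3 Bcl6KO libraries lay above all 3 WT libraries at both stages in 7 members (12.7%): Cenpe, Cenpf, Kif11, Mad2l1, Ncaph, Plk4 and Top2a, against 0.688% of all genes.

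**Figure D4:**
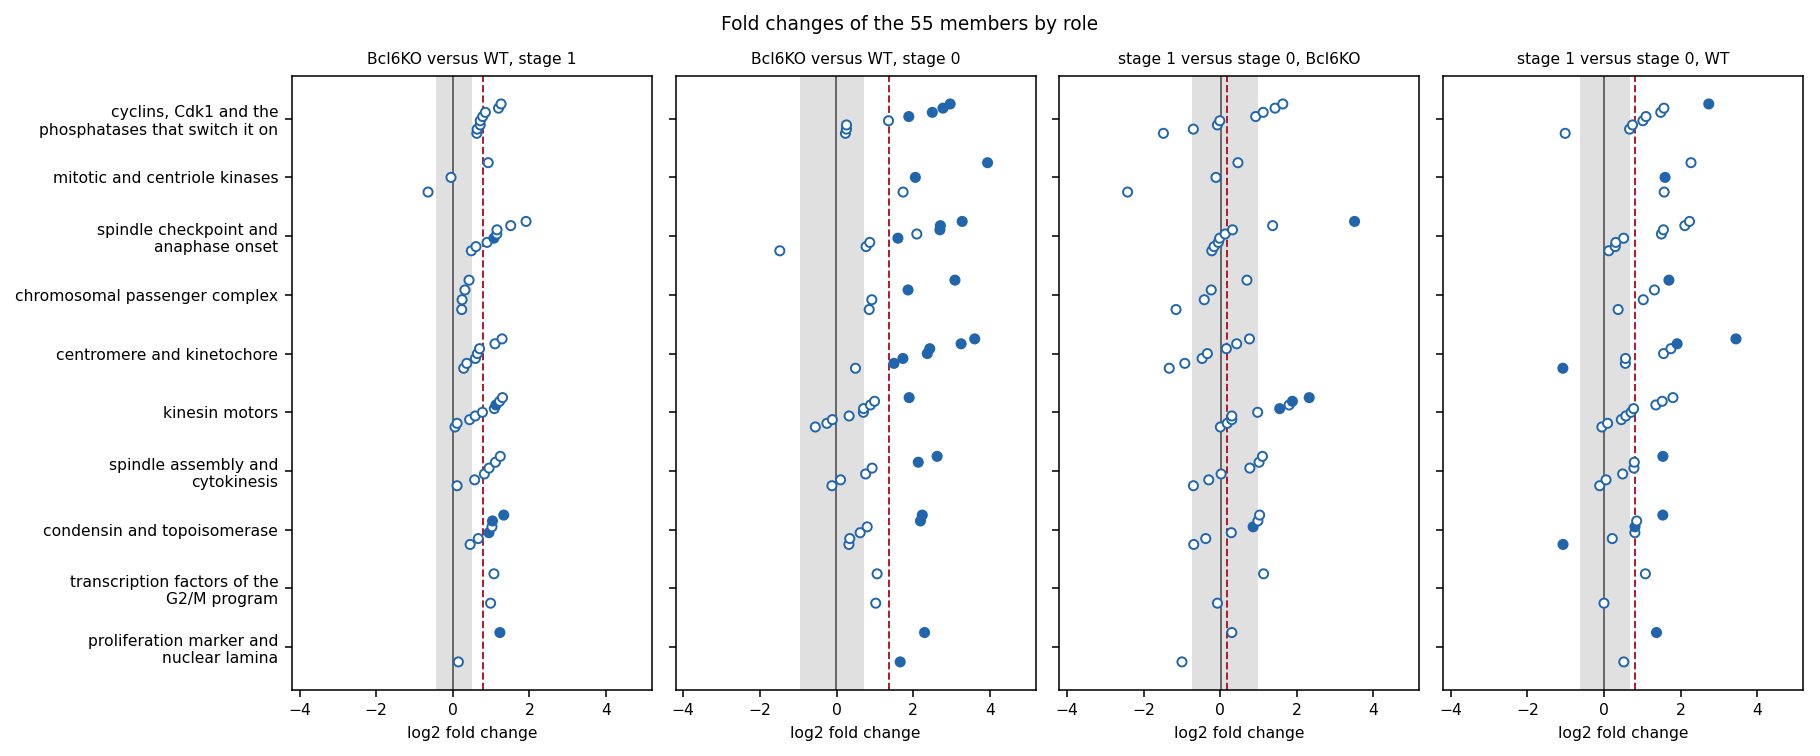
Log2 fold change (x axis) of each of the 55 genes (circles, by role down the y axis) in 4 comparisons: Bcl6KO versus WT at stage 1 and at stage 0, and stage 1 versus stage 0 in Bcl6KO and in WT. Filled circles have an unadjusted p under 0.05 and none passed after adjustment; the red dashed line is the median of the members, and the grey line and band are the median and middle quartiles of all genes tested. The medians of the members are 0.78, 1.36, 0.18 and 0.81 from left to right, and the third panel has members on both sides of the grey line in most roles.

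Mki67, whose product coats mitotic chromosomes and is the standard marker of cycling cells, was the most abundant member. At stage 1 it stood at 1294, 3177 and 2353 CPM in Bcl6KO libraries, against 1166, 442 and 1302 CPM in WT libraries, and the groups just overlapped (log2 fold change 1.23, SE 0.38, edgeR adjusted p = 1). At stage 0 it stood at 1491, 2250.1 and 1794 CPM in Bcl6KO libraries, against 441, 346 and 338 CPM in WT libraries, with no overlap (2.30, SE 0.40, edgeR adjusted p = 0.1003). Averaged over stages the log2 fold change was 1.76, SE 0.27, edgeR adjusted p = 0.0693. Without Bcl6KO stage 0 library 1, or without WT stage 1 library 2, Mki67 passed the edgeR test at stage 0. Lmnb1, which encodes the lamina protein lamin B1 and is low in senescent cells, had 71.9, 73.6 and 62.6 CPM in Bcl6KO libraries, against 13.5, 20.9 and 31.3 CPM in WT libraries at stage 0, again without overlap (1.66, SE 0.59, edgeR adjusted p = 0.232). Its levels at stage 1 were 31.2, 37.6 and 35.3 CPM in Bcl6KO libraries, against 51.01, 11.1 and 32.00 CPM in WT libraries.

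Topoisomerase II and condensin untangle and compact the chromosomes. Top2a, the topoisomerase of dividing cells, had at stage 1 427, 524 and 578 CPM in Bcl6KO libraries, against 316, 169 and 309.7 CPM in WT libraries, and at stage 0 458, 332 and 461 CPM in Bcl6KO libraries, against 56.3, 134 and 83.5 CPM in WT libraries. The groups did not overlap at either stage, and the log2 fold changes were 0.94, SE 0.34, edgeR adjusted p = 1 at stage 1 and 2.19, SE 0.35, edgeR adjusted p = 0.0939 at stage 0. Averaged over stages the difference was 1.57, SE 0.25, edgeR adjusted p = 0.0693. Of the condensin genes, Smc4, a core ATPase subunit, stood at 291, 594 and 489.9 CPM in Bcl6KO libraries, against 264, 118 and 287 CPM in WT libraries at stage 1. At stage 0 it was abundant in both genotypes, with 598, 634 and 555 CPM in Bcl6KO libraries, against 641, 319 and 446 CPM in WT libraries. Smc4 thus separated the genotypes narrowly at stage 1 (1.04, SE 0.37, edgeR adjusted p = 1) and overlapped at stage 0. Smc2, its partner ATPase, had 209, 198 and 145 CPM in Bcl6KO libraries, against 162, 82.9 and 102 CPM in WT libraries at stage 1, and 81.5, 118 and 105 CPM in Bcl6KO libraries, against 77.1, 66.9 and 53.9 CPM in WT libraries at stage 0, where the groups did not overlap. Ncaph, the kleisin subunit of condensin I, averaged 92.4 ± 32.4 CPM in Bcl6KO and 36.7 ± 24.7 CPM in WT at stage 1, and 149 ± 84.03 CPM in Bcl6KO and 31.6 ± 7.80 CPM in WT at stage 0 (SD, n = 3 each). Ncaph had no overlap at either stage and log2 fold changes of 1.33 and 2.24. The condensin subunits Ncapd2 and Ncapg ranged over 1.57 to 107 CPM and overlapped at both stages.

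Kinesins slide, depolymerise and bundle spindle microtubules. Kif11, the motor that pushes spindle poles apart, had at stage 1 212, 302 and 225 CPM in Bcl6KO libraries, against 143, 62.8 and 132 CPM in WT libraries, and at stage 0 149.9, 213 and 373 CPM in Bcl6KO libraries, against 60.4, 69.5 and 67.9 CPM in WT libraries. It was higher in every Bcl6KO library at each stage (1.13, SE 0.39, edgeR adjusted p = 1 at stage 1, and 1.90, SE 0.40, edgeR adjusted p = 0.1003 at stage 0). The average over stages was 1.51, SE 0.28, edgeR adjusted p = 0.114, and WT stage 0 libraries lay within a narrow range for this gene. Kif15, which can stand in for Kif11, stood at 89.2, 132 and 97.8 CPM in Bcl6KO libraries, against 68.5, 38.1 and 79.99 CPM in WT libraries at stage 1, without overlap. At stage 0 it had 31.9, 41.5 and 88.8 CPM in Bcl6KO libraries, against 72.7, 47.8 and 54.3 CPM in WT libraries, with overlap. Kif4, a chromosome-bound motor of the midzone, had 81.6, 110.3 and 56.9 CPM in Bcl6KO libraries, against 35.7, 24.3 and 46.6 CPM in WT libraries at stage 1, without overlap, and 28.7, 2.65 and 18.3 CPM in Bcl6KO libraries, against 0.994, 12.01 and 17.5 CPM in WT libraries at stage 0. Kif22, which carries chromosome arms, had 48.3, 39.2 and 33.1 CPM in Bcl6KO libraries, against 30.5, 41.7 and 39.4 CPM in WT libraries at stage 1, and 6.19, 9.10 and 17.3 CPM in Bcl6KO libraries, against 3.38, 26.4 and 9.05 CPM in WT libraries at stage 0. Kif20a, a motor of cytokinesis, had 67.9, 36.97 and 62.1 CPM in Bcl6KO libraries, against 42.4, 41.1 and 39.6 CPM in WT libraries at stage 1, and 110.00, 15.2 and 10.2 CPM in Bcl6KO libraries, against 43.1, 16.7 and 23.03 CPM in WT libraries at stage 0. Both Kif22 and Kif20a overlapped at each stage, and 29.3% of the exonic bases of Kif20a are shared with Cdc23, so its counts may hold reads of that gene. The other kinesins, Kif18b, Kif20b, Kif23 and Kif2c, ranged over 0 to 93.7 CPM. At stage 0 Kif11 alone of the 9 kinesins had an unadjusted p under 0.05, and the median of the 9 was 0.70.

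**Figure D5:**
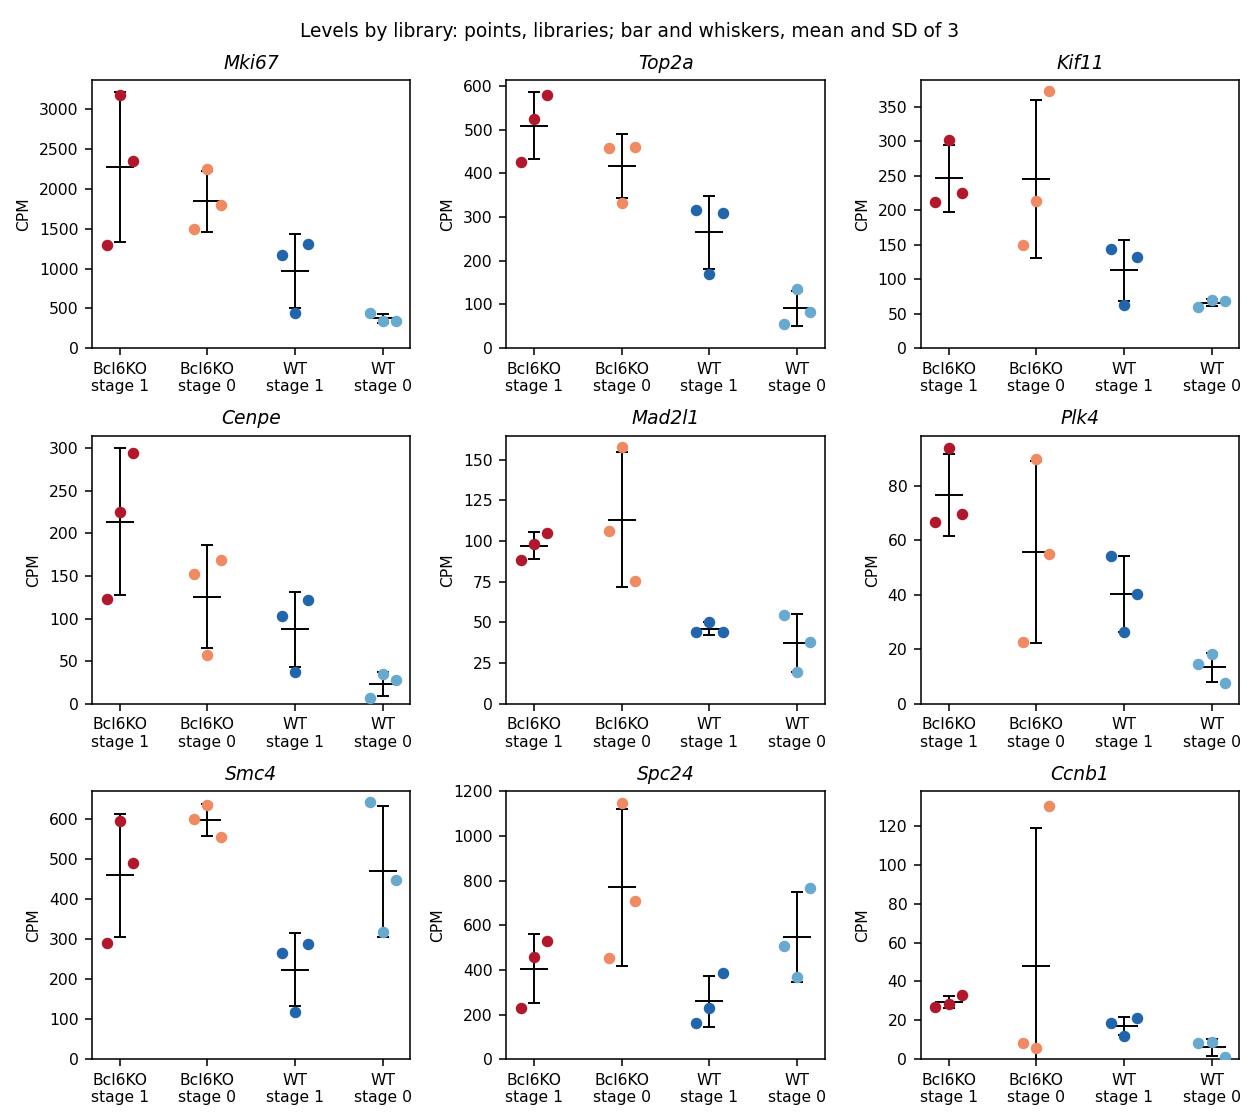
CPM (y axes, from 0) of 9 members in the 12 libraries: points are libraries, the horizontal bar is the mean and the whiskers the SD of the 3 libraries of a group. The panels show Top2a, Kif11, Cenpe, Mad2l1 and Plk4 higher in every Bcl6KO library than in any WT library of the same stage, Mki67 just overlapping at stage 1, Smc4 and Spc24 high at stage 0 in both genotypes with overlap, and Ccnb1 with 1 Bcl6KO stage 0 library at 129.95 CPM.

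Centromere and kinetochore genes had a larger median log2 fold change at stage 0 than the other roles: all 7 were positive, with a median of 2.37, and 6 had an unadjusted p under 0.05. Cenpe, a kinetochore motor, had at stage 1 122, 224 and 294 CPM in Bcl6KO libraries, against 103, 37.7 and 122 CPM in WT libraries, and at stage 0 152, 57.3 and 168 CPM in Bcl6KO libraries, against 7.16, 34.5 and 28.1 CPM in WT libraries. Neither stage overlapped, stage 1 by a narrow margin, and the stage 0 log2 fold change was 2.43, SE 0.64, edgeR adjusted p = 0.147. Cenpa, the histone that marks centromeres, had 116, 171 and 104 CPM in Bcl6KO libraries, against 112, 46.00 and 82.9 CPM in WT libraries at stage 1, and 136, 268 and 138 CPM in Bcl6KO libraries, against 19.1, 50.8 and 93.3 CPM in WT libraries at stage 0. Only at stage 0 were its libraries apart (1.73, SE 0.55, edgeR adjusted p = 0.202). Spc24, a subunit of the Ndc80 complex and the most abundant member per kilobase of exon, did not separate the genotypes. At stage 1 it had 231, 459 and 528 CPM in Bcl6KO libraries, against 163, 232 and 385 CPM in WT libraries, and at stage 0 452, 1149.9 and 710.2 CPM in Bcl6KO libraries, against 508, 367 and 766 CPM in WT libraries, with overlap at both. The other 3 subunits, Ndc80, Nuf2 and Spc25, ranged over 0 to 93.4 CPM and had stage 0 log2 fold changes of 2.37, 3.61 and 3.25. Of these, Ndc80 was apart at stage 0, while Nuf2 and Spc25 overlapped. In WT stage 0 libraries Nuf2 ran from 0 to 2.95 CPM and Spc25 from 0.590 to 12.6 CPM. Cenpf, a large kinetochore protein, averaged 152 ± 13.8 CPM in Bcl6KO and 70.9 ± 29.7 CPM in WT at stage 1, and 136 ± 98.9 CPM in Bcl6KO and 48.1 ± 20.4 CPM in WT at stage 0 (SD, n = 3 each).

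Of the 8 checkpoint and anaphase genes, 7 were positive at stage 0 and all 8 at stage 1. Mad2l1, the checkpoint protein that restrains Cdc20, had at stage 1 88.4, 98.2 and 105 CPM in Bcl6KO libraries, against 44.04, 50.5 and 43.9 CPM in WT libraries, and at stage 0 106, 158 and 75.4 CPM in Bcl6KO libraries, against 54.7, 19.3 and 37.8 CPM in WT libraries. Its libraries were apart at both stages, with log2 fold changes of 1.07, SE 0.44, edgeR adjusted p = 1 and 1.60, SE 0.45, edgeR adjusted p = 0.166. Averaged over stages the difference was 1.34, SE 0.31, edgeR adjusted p = 0.154. Cdc20, the activator of the anaphase-promoting complex, was low, with 15.1, 8.35 and 13.2 CPM in Bcl6KO libraries, against 9.56, 3.16 and 3.69 CPM in WT libraries at stage 1, and 6.79, 17.8 and 12.4 CPM in Bcl6KO libraries, against 0.199, 2.76 and 0.787 CPM in WT libraries at stage 0. It was apart at stage 0 (3.28, SE 1.10, edgeR adjusted p = 0.219). Bub3, a checkpoint scaffold, had 90.2, 110.1 and 146 CPM in Bcl6KO libraries, against 97.04, 49.6 and 101 CPM in WT libraries at stage 1, and 101, 125 and 161 CPM in Bcl6KO libraries, against 52.1, 81.3 and 93.3 CPM in WT libraries at stage 0, apart at stage 0. Bub1b, a checkpoint pseudokinase, had 42.3, 62.4 and 124 CPM in Bcl6KO libraries, against 69.3, 20.9 and 32.6 CPM in WT libraries at stage 1, and 6.59, 44.4 and 132 CPM in Bcl6KO libraries, against 71.4, 17.1 and 11.8 CPM in WT libraries at stage 0, with overlap at both. Ttk, the kinase that starts the checkpoint, was lower on average in Bcl6KO at stage 0, with 6.59, 1.14 and 3.54 CPM in Bcl6KO libraries, against 4.97, 22.6 and 3.94 CPM in WT libraries, and had 27.6, 66.8 and 34.3 CPM in Bcl6KO libraries, against 14.7, 11.5 and 18.9 CPM in WT libraries at stage 1. Ttk libraries overlapped at stage 0 and were apart at stage 1. The others, Bub1, Espl1 (separase) and Ube2c (the ubiquitin-conjugating enzyme of the anaphase-promoting complex), ranged over 0 to 115 CPM; Ube2c shares 22.8% of its exonic bases with Tnnc2.

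The cyclins, Cdk1 and its activators were positive in 8 of 8 at both stages, with medians of 0.75 at stage 1 and 1.62 at stage 0. Cdk1 had 28.2, 22.5 and 28.9 CPM in Bcl6KO libraries, against 18.3, 12.04 and 21.1 CPM in WT libraries at stage 1, without overlap, and 12.2, 64.8 and 146 CPM in Bcl6KO libraries, against 10.1, 12.99 and 9.25 CPM in WT libraries at stage 0, where library 3 of Bcl6KO was the highest (2.78, SE 0.76, edgeR adjusted p = 0.162). Ccnb1, cyclin B1, had 27.01, 28.4 and 33.1 CPM in Bcl6KO libraries, against 18.5, 11.8 and 21.1 CPM in WT libraries at stage 1, without overlap. At stage 0 it had 8.38, 5.88 and 129.95 CPM in Bcl6KO libraries, against 8.15, 9.06 and 1.18 CPM in WT libraries, so library 3 alone of Bcl6KO stood above every WT library (2.97, SE 1.11, edgeR adjusted p = 0.255). Ccna2, cyclin A2, had 136, 151 and 113 CPM in Bcl6KO libraries, against 113, 57.3 and 72.8 CPM in WT libraries at stage 1, and 70.9, 107 and 242 CPM in Bcl6KO libraries, against 24.2, 67.5 and 21.8 CPM in WT libraries at stage 0, apart at stage 0 (1.89, SE 0.55, edgeR adjusted p = 0.180). Cdc25b, a phosphatase that switches Cdk1 on, had 51.2, 125 and 66.7 CPM in Bcl6KO libraries, against 45.8, 50.5 and 60.1 CPM in WT libraries at stage 1, and 19.96, 1.71 and 90.2 CPM in Bcl6KO libraries, against 23.7, 16.3 and 53.3 CPM in WT libraries at stage 0. Cdc25b overlapped at both stages. The other 4, Ccnb2, Ccnf, Cdc25c and Cdca3, ranged over 0.569 to 73.5 CPM.

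Among the kinases, Plk4, which starts centriole duplication, had at stage 1 66.7, 94.01 and 69.5 CPM in Bcl6KO libraries, against 54.4, 26.5 and 40.4 CPM in WT libraries, and at stage 0 22.6, 89.7 and 54.9 CPM in Bcl6KO libraries, against 14.5, 18.1 and 7.48 CPM in WT libraries. The groups did not overlap at either stage (2.06, SE 0.59, edgeR adjusted p = 0.176 at stage 0). Plk1, the polo kinase of mitotic entry, was low, with 10.53, 6.56 and 12.98 CPM in Bcl6KO libraries, against 24.1, 11.5 and 11.5 CPM in WT libraries at stage 1, and 16.2, 0.569 and 15.8 CPM in Bcl6KO libraries, against 4.37, 4.33 and 0.984 CPM in WT libraries at stage 0. Aurka, the spindle pole kinase, had 12.3, 5.96 and 6.79 CPM in Bcl6KO libraries, against 13.9, 4.15 and 7.79 CPM in WT libraries at stage 1. At stage 0 Aurka had 5.99, 1.14 and 127 CPM in Bcl6KO libraries, against 0, 7.48 and 1.18 CPM in WT libraries, and again library 3 alone of Bcl6KO stood above every WT library (3.94, SE 1.65, edgeR adjusted p = 0.297). Plk1 and Aurka were the 2 members with a negative log2 fold change at stage 1, and both overlapped. Plk1 shares 7.09% of its exonic bases with another gene. Of the members in other roles, Kif4 (15.1%), Ncapg (13.4%), Cdc25c (12.7%), Ccna2 (12.5%) and Prc1 (11.1%) also share more than that, beside Kif20a and Ube2c.

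The chromosomal passenger complex corrects faulty attachments and later sets the cleavage plane. Birc5 (survivin) had 88.6, 54.9 and 53.9 CPM in Bcl6KO libraries, against 49.4, 41.3 and 67.7 CPM in WT libraries at stage 1, and 85.8, 102 and 44.3 CPM in Bcl6KO libraries, against 35.4, 26.97 and 60.2 CPM in WT libraries at stage 0. Aurkb, its kinase, had 40.5, 31.01 and 65.9 CPM in Bcl6KO libraries, against 27.1, 44.4 and 45.3 CPM in WT libraries at stage 1, and 31.9, 25.4 and 27.4 CPM in Bcl6KO libraries, against 0.199, 31.9 and 14.8 CPM in WT libraries at stage 0. Both overlapped at each stage. Cdca8 (borealin) had 35.4, 47.5 and 57.5 CPM in Bcl6KO libraries, against 33.3, 10.9 and 74.5 CPM in WT libraries at stage 1, and 29.9, 107 and 175 CPM in Bcl6KO libraries, against 16.1, 13.2 and 7.28 CPM in WT libraries at stage 0, apart at stage 0 (3.09, SE 0.77, edgeR adjusted p = 0.136). Incenp, the scaffold, ranged over 4.13 to 104 CPM. The median of the 4 genes was 0.28 at stage 1 and 1.39 at stage 0.

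Of the spindle assembly and cytokinesis genes, Tpx2, which nucleates microtubules around chromosomes, had 80.8, 119 and 62.9 CPM in Bcl6KO libraries, against 63.2, 32.6 and 40.6 CPM in WT libraries at stage 1, and 62.7, 276 and 88.4 CPM in Bcl6KO libraries, against 41.3, 39.2 and 16.7 CPM in WT libraries at stage 0, apart at stage 0 (2.13, SE 0.60, edgeR adjusted p = 0.166). Nusap1, a microtubule bundling protein, had 52.04, 154 and 87.8 CPM in Bcl6KO libraries, against 40.1, 29.4 and 66.3 CPM in WT libraries at stage 1, and 116, 38.9 and 134 CPM in Bcl6KO libraries, against 27.6, 10.8 and 8.27 CPM in WT libraries at stage 0, likewise apart at stage 0 (2.63, SE 0.66, edgeR adjusted p = 0.137). Hmmr, Prc1, Anln and Ect2 ranged over 2.78 to 118 CPM; at stage 1 Hmmr and Prc1 did not overlap. The activators of the program were higher on average in Bcl6KO and scattered. Foxm1 had 91.6, 124 and 117 CPM in Bcl6KO libraries, against 46.8, 15.99 and 95.2 CPM in WT libraries at stage 1, and 72.1, 12.9 and 66.9 CPM in Bcl6KO libraries, against 44.7, 27.2 and 2.76 CPM in WT libraries at stage 0. Mybl2 had 32.2, 34.98 and 34.5 CPM in Bcl6KO libraries, against 19.1, 6.52 and 25.6 CPM in WT libraries at stage 1, without overlap, and 64.5, 41.5 and 0.984 CPM in Bcl6KO libraries, against 10.7, 5.12 and 35.4 CPM in WT libraries at stage 0, with overlap.

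The comparison of stage 1 with stage 0 follows the cells across the loss of CD24. In WT cells most mitotic genes had higher fitted levels at stage 1, led by Top2a, Mki67 and Cenpe, while Smc4 and Spc24 had lower ones. The median log2 fold change of members was 0.81, against -0.00 over all genes, 49 of 55 were positive, and unadjusted p was under 0.05 for 9 higher and 2 lower members. No member passed the edgeR test (0 of 55, with 0.433% of all genes called, lowest adjusted p = 0.0875). DESeq2 called 1 of 55, with 2.39% of all genes called, and limma-voom 0, with 0.624% of all genes called. All WT stage 1 libraries lay above all WT stage 0 libraries in 14 members (25.5%), against 12.5% of all genes, and below in 1 member, against 9.06% of all genes. Top2a had the lowest p, with 316, 169 and 309.7 CPM at stage 1 and 56.3, 134 and 83.5 CPM at stage 0 (1.54, SE 0.35, edgeR adjusted p = 0.0875), and passed without WT stage 0 library 2. Mki67 followed (1.37, SE 0.38, edgeR adjusted p = 0.226), then Cenpe (1.91, SE 0.63, edgeR adjusted p = 0.365). Both were higher in every stage 1 library than in any stage 0 library, by a narrow margin in stage 1 library 2. Smc4 was the member that lay below, with 264, 118 and 287 CPM at stage 1 and 641, 319 and 446 CPM at stage 0 (-1.07, SE 0.37, edgeR adjusted p = 0.387). Spc24 was also lower at stage 1, with overlap (-1.07, SE 0.43, edgeR adjusted p = 0.490). With 1 library left out the median over members ran from 0.63, without WT stage 1 library 1, to 1.15, without WT stage 1 library 2. Members with an unadjusted p under 0.05 numbered 6 without WT stage 1 library 1 and 6 without WT stage 0 library 3. They numbered 14 without WT stage 1 library 2 and 16 without WT stage 0 library 2.

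In Bcl6KO cells the stages lay closer together. The median over members was 0.18, against 0.01 over all genes, and 32 of 55 were positive. Unadjusted p was under 0.05 for 5 members, all higher at stage 1, and none passed the edgeR test (0 of 55, with 0.675% of all genes called, lowest adjusted p = 0.101). DESeq2 called Ttk alone of the 55, with 8.34% of all genes called, and limma-voom called 0, with 1.66% of all genes called. Libraries were apart in 8 members higher at stage 1 (14.5%), against 11.8% of all genes, and in 1 lower member, Lmnb1 (1.82%), against 5.76% of all genes. Ttk had 27.6, 66.8 and 34.3 CPM at stage 1 and 6.59, 1.14 and 3.54 CPM at stage 0 (3.51, SE 0.95, edgeR adjusted p = 0.101). The other 4 with a low p were the kinesins Kif4, Kif22 and Kif23 and the condensin gene Smc2, with log2 fold changes of 2.32, 1.88, 1.55 and 0.86. All 9 kinesins were positive here, with a median of 0.98. Mki67 averaged 2275 ± 944 CPM at stage 1 and 1845 ± 382 CPM at stage 0, and Top2a 509.7 ± 76.9 CPM at stage 1 and 417 ± 73.5 CPM at stage 0 (SD, n = 3 each). With totals taken as library size without scaling, the median of all genes was 0.50, that of the members was 0.74 and 46 members were positive. Leaving out 1 library also moved the median over members: it was 0.30 without Bcl6KO stage 0 library 1, 0.46 without its library 3, and 0.32, 0.28 and 0.10 without Bcl6KO stage 1 libraries 1, 2 and 3.

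Averaged over genotypes, 44 members were positive at stage 1 against stage 0, with a median of 0.71 against 0.03 over all genes. Unadjusted p was under 0.05 for 12 higher and 2 lower members, and none passed the edgeR test (0 of 55, with 3.46% of all genes called). DESeq2 called 9 of 55 members, with 9.52% of all genes called, and limma-voom 4, with 5.02% of all genes called. Top2a came closest (0.91, SE 0.24, edgeR adjusted p = 0.0566), followed by Smc2 (0.83, SE 0.25, edgeR adjusted p = 0.084) and Spc24 (-0.999, SE 0.31, edgeR adjusted p = 0.0951). Kif22 (1.70), Ttk (2.01) and Kif4 (2.06) had larger log2 fold changes with wider errors.

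The difference of the stage effects, Bcl6KO minus WT, was tested directly as an interaction. Its median over members was -0.53, against 0.05 over all genes, with 36 of 55 negative, and unadjusted p was under 0.05 for 1 positive and 2 negative members. With unscaled totals the median was -0.15 over members, with 25 positive, and 0.46 over all genes. None passed the edgeR test (0 of 55, with 0% of all genes called, lowest adjusted p = 0.544), and DESeq2 and limma-voom called 0 members. Cdca8 (-2.85, SE 1.03, edgeR adjusted p = 0.544), Top2a (-1.25, SE 0.48, edgeR adjusted p = 0.573) and Ttk (2.99, SE 1.24, edgeR adjusted p = 0.594) had the lowest p. The closer stages in Bcl6KO were thus not shown to differ from WT for any member.

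Other genes of the division machinery were taken from textbook lists. The 24 other spindle and cytokinesis genes were positive for Bcl6KO against WT in 24 at stage 1 (median 1.23) and in 20 at stage 0 (median 1.34), with unadjusted p under 0.05 for 5 and 7 of them and none passing. Aspm, a spindle pole protein, averaged 116 ± 13.02 CPM in Bcl6KO and 49.2 ± 13.8 CPM in WT at stage 1, and 90.5 ± 7.30 CPM in Bcl6KO and 34.2 ± 4.82 CPM in WT at stage 0 (SD, n = 3 each). Its averaged log2 fold change was 1.32, SE 0.26, edgeR adjusted p = 0.141. The 26 other centromere and kinetochore genes had medians of 0.68 at stage 1 (22 positive) and 1.19 at stage 0 (23 positive). DNA replication genes, which act before mitosis, had medians of 0.41 at stage 1 (25 of 30 positive) and 0.78 at stage 0 (26 of 30), also with none passing. Regulators and machinery with roles beyond mitosis had smaller medians at stage 0. The 14 cohesin genes had medians of 0.23 and 0.42 at stages 1 and 0. Those of the 16 genes of the anaphase-promoting complex and its cofactors were 0.06 and 0.08. The 19 DREAM and pocket protein genes had 0.20 and 0.20, and the 11 tested of 16 brakes on mitotic entry 0.48 and 0.33. In the stage comparison averaged over genotypes 1 of these genes passed, where 3.46% of all genes did. It was E2f7, an atypical E2F repressor, which was higher at stage 1 (edgeR adjusted p = 0.0421). In Bcl6KO libraries it was at 25.4, 13.7 and 26.95 CPM at stage 1, and 0.399, 0 and 0.394 CPM at stage 0. In WT libraries it was at 29.9, 4.94 and 24.4 CPM at stage 1, and 25.04, 1.58 and 3.94 CPM at stage 0. All 3 Bcl6KO stage 0 values of E2f7 lie under the 3 counts that a count of 0 allows.

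Markers of other thymus cells were also summed. The summed level of 10 immature thymocyte markers was 57.8 to 85.1 CPM in Bcl6KO stage 1 and 38.3 to 53.3 CPM in WT stage 1. The ranges were apart at stage 1. At stage 0 the sum was 793 to 1003 CPM in Bcl6KO and 357 to 1424 CPM in WT, overlapping. All 10 were detected in each group, except Rag2, which had 0 counts in WT stage 1. These sums move with the stage. At stage 1 Arpp21 was at 15.1, 49.7 and 15.8 CPM in Bcl6KO libraries, against 0.797, 0.197 and 0.205 CPM in WT libraries. Ptcra was also higher in every Bcl6KO library there. Rag1 and Il2ra were lower, but library scaling alone kept their nearest libraries apart. Rag1 was at 0.199, 0.199 and 0 CPM in Bcl6KO libraries, against 4.38, 4.74 and 0.205 CPM in WT libraries. Here 0.199 and 0.205 CPM are 1 count each. The nearest Il2ra libraries were at 3.975 CPM in Bcl6KO and 3.985 CPM in WT. The other markers overlapped. The summed list was thus higher in Bcl6KO at stage 1, where Arpp21 was its highest marker, while single markers differed in direction. The part of these markers in the members' differences was not tested. B cell markers summed to 33.0 to 97.5 CPM in Bcl6KO stage 1, 53.8 to 177 CPM in its stage 0 cells, 84.7 to 158 CPM in WT stage 1 and 27.0 to 108 CPM in WT stage 0. Ms4a1 was at 0 in both stage 1 groups, and Igkc was at 0 in WT stage 1. Myeloid markers summed to 59.2 to 182 CPM in Bcl6KO stage 1 and 33.5 to 94.6 CPM in its stage 0 cells, against 30.4 to 85.7 CPM in WT stage 1 and 28.7 to 59.6 CPM in WT stage 0. At stage 1 the 7 myeloid markers had a median log2 fold change of 1.52, with 5 positive and 2 higher without overlap. Most of them were thus higher in Bcl6KO there, though the sums of the 2 genotypes overlapped. The part of the myeloid markers in the members' differences was not tested. The globin genes Hba-a1 and Hba-a2 were at 0 in every library, as were the epithelial keratins Krt5 and Krt8. The stroma list summed to 142 to 1492 CPM in Bcl6KO stage 0, against 105 to 182 CPM in WT stage 0, and the ranges overlapped. Its highest gene was Pecam1, an adhesion molecule of endothelium that some T cells also carry, at 219, 1441 and 128 CPM in the 3 Bcl6KO stage 0 libraries, so library 2 alone stood far above the WT libraries.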

How the data were processed

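Each of the 12 libraries came with a file of raw counts per gene, deposited by the authors with no normalization; the submitters' processing notes name bcl2fastq, TopHat2, Bowtie2 and DESeq with build mm10, and the counting program is not given in the sources used here. Libraries were made with a low-input NuGEN kit, per the labels' protocols. The counts were fitted with edgeR 4.0.16 (TMM scaling, genes kept by filterByExpr, robust quasi-likelihood fit, 4 group means over all 12 libraries, 8 residual degrees of freedom). Benjamini-Hochberg adjustment ran over the 15704 genes tested, with a threshold of 0.05. Where a count of members with an unadjusted p under 0.05 has no count over all genes beside it, it only describes the members. The code was tested on simulated data. Contrasts compared the genotypes at each stage and on average, the stages in each genotype and on average, and the difference of the stage effects. Alternatives were other scalings and filters, DESeq2 1.42.0, limma-voom 3.58.1, a replicate block, the Sp100 share as a covariate, the libraries compared alone, and each library left out. Members and gene lists were chosen with earlier results of these data known. Genes given library by library are textbook examples, the most abundant in each role, and the 3 with the lowest p in each contrast. Coordinates and exon overlaps come from GENCODE M21 on GRCm38, and promoters from RefSeq on GRCm38.p6. Between libraries of a group, counts differed far beyond sampling noise, so each was counted once. A count of 0 allows 3 counts, or 0.569 to 0.615 CPM, for counting error only.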

Additional observations from a re-analysis of the deposited data

How the results depend on the processing

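All 158 medians of member fold changes under the 23 alternative settings kept the sign of the reported median, and 1462 of 1464 values of the 65 member fold changes followed kept their direction, while 73 came past the threshold. Those 65 are the ones with a low p; over all 55 members, positive ones between Bcl6KO stages numbered 46 with unscaled totals, 40 with limma-voom and 38 with upper quartile scaling, against 32 as reported, and at stage 0 42 with unscaled totals, against 50. With the replicate block the median between Bcl6KO stages was 0.37. The 2 reversals came with the Sp100 share as a covariate: -0.34 for Kif4 in the Bcl6KO stage comparison and 0.22 for Spc24 in the averaged stage comparison; the cause was not tested. Members called for Bcl6KO against WT at stage 0 numbered 5 with no filter on low counts, 19 by DESeq2, and 0 to 5 with 1 library left out. Averaged over stages they numbered 6 with no filter, 15 by DESeq2, 1 by limma-voom and 0 to 3 with 1 library left out. Between stages, members called in WT were 1 with no filter, 1 by DESeq2 and 0 to 1 with 1 library left out, and in Bcl6KO 1 by DESeq2. Averaged over genotypes they were 3 with unscaled totals, 5 with no filter, 9 by DESeq2 (8 higher and 1 lower), 4 by limma-voom, 1 with the replicate block (Spc24) and 0 to 4 with 1 library left out. Without Bcl6KO stage 0 library 1, Cdca8, Cdk1, Kif11, Mki67 and Top2a passed at stage 0; without WT stage 1 library 2, Mki67 passed there; without WT stage 0 library 2, Top2a passed between WT stages.

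Over all genes, calls at stage 0 (3) became 0 with upper quartile scaling, unscaled totals, the Sp100 covariate or the 6 libraries alone, 1 with limma-voom or the replicate block, 103 with no filter, 950 by DESeq2 and 0 to 133 with 1 library left out. At stage 1 (0) they became 11 with no filter, 20 by DESeq2 and 0 to 1 with 1 left out. Averaged over stages (1) they became 88 with no filter, 450 by DESeq2, 4 by limma-voom, 0 with the Sp100 covariate and 0 to 62 with 1 left out. Between WT stages (68) they became 142 with no filter, 376 by DESeq2 and 20 to 139 with 1 left out. Between Bcl6KO stages (106) they became 172 with unscaled totals, 309 with no filter, 162 with the stricter filter, 1309 by DESeq2, 260 by limma-voom, 39 with the replicate block, 0 with the Sp100 covariate, 3 with the 6 libraries alone and 7 to 277 with 1 left out. Averaged over genotypes (544) they became 830 with no filter, 1495 by DESeq2, 16 with the Sp100 covariate and 193 to 708 with 1 left out. For the difference of the stage effects (0) they became 7 with no filter and 130 by DESeq2. Unscaled totals gave a member median of 0.85 at stage 0 and 0.74 between Bcl6KO stages, where limma-voom gave 0.69. Replicate numbers did not pair the libraries: over 18 same-numbered pairs r ran from -0.075 to 0.12, with 2 above 0.1. Precision is bounded by 3 libraries a group with a common biological coefficient of variation of 0.835, and members under the floor of 3 counts in a library have no level there.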
